A study of Mus musculus with 19 samples.

Results

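The mitochondrial ribosomal proteins are the nuclear-encoded proteins of the ribosome that works inside mitochondria. They were taken here as every symbol of both count tables made of Mrpl or Mrps, a number and at most 1 further letter, which gave 78 genes of 54352. Of these, 49 carry a large-subunit symbol (Mrpl) and 29 a small-subunit symbol (Mrps). All 78 are annotated as protein-coding, and they lie on 17 chromosomes. Symbols follow the older naming: the products of Mrps30 and Mrps18a sit in the large subunit, and that of Mrps36 is now known as a component of the 2-oxoglutarate dehydrogenase complex.

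The mitochondrial ribosome translates the few proteins that mitochondrial DNA encodes, all of them subunits of the respiratory chain and ATP synthase. Its ribosomal RNAs come from the mitochondrial genome, whereas its proteins are made in the cytosol, imported and assembled on those RNAs in stages. Early mouse embryos carry mitochondria inherited from the oocyte, and mitochondrial translation is needed for development beyond implantation.

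The study used mouse TT2 embryonic stem cells grown on feeder layers of inactivated mouse embryonic fibroblasts. In 2D culture, 2 libraries came from cells given 20 nM pladienolide B (PlaB, an inhibitor of the splicing factor SF3B1) for 6 h after 48 h of growth, and 2 from untreated cells, all labelled 54 h. A further 15 libraries came from blastoids, embryo-like structures grown in 3D microwells, with 3 libraries on each of days 1 to 5, and these too are labelled as PlaB-treated for 6 h. Polyadenylated RNA was sequenced by Smart-seq2, and the 2 culture formats were deposited as separate tables of raw counts. No label says that replicates were separate cultures, so p-values below measure only the spread between these libraries, which may be technical.

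Promoter stretches of 8 members are shown because the text below turns on their levels and because they hold, or lack, the motifs that set the members' promoters apart in composition. Each is the 100 bases before a RefSeq transcript start of GRCm38.p6, written in the direction of transcription. Capitals mark complete matches within the stretch, on either strand, to the letters CCGGAAG (ETS family, which includes GABPA), to GCGC and TGCGC with 1 base between them (NRF1) or to AANATGGC (YY1).
Mrpl12, chr11:120484537-120484636, plus strand, NRF1 letters: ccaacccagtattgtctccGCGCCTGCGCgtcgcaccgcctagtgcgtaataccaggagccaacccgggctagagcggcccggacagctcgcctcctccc
Mrpl32, chr13:14613038-14613137, minus strand, NRF1 letters: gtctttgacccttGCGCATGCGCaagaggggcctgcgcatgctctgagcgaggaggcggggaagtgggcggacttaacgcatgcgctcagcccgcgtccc
Mrps21, chr3:95871515-95871614, minus strand, NRF1 letters: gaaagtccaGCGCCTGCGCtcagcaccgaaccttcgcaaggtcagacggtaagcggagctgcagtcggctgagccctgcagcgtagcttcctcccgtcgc
Mrps26, chr2:130563657-130563756, plus strand, ETS letters: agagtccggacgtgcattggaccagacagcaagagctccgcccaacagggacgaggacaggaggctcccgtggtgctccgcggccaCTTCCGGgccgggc
Mrps22, chr9:98601680-98601779, minus strand, ETS letters: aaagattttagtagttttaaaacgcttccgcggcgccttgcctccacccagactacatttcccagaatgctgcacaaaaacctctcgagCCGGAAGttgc
Mrpl47, chr3:32736756-32736855, minus strand, YY1 letters: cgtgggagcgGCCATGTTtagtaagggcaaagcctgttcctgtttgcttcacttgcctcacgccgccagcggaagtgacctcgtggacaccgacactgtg
Mrpl28, chr17:26123403-26123502, plus strand, no match in the stretch: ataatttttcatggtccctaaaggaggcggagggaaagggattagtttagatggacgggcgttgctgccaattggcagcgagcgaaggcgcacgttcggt
Mrps12, chr7:28741822-28741921, minus strand, no match in the stretch: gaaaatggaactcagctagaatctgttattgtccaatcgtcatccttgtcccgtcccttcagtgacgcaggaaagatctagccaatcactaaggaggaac

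RefSeq promoters reaching 250 bases before to 50 after the start were at hand for 69 of the 78 members, as 75 promoters. The ETS letters stood in 34.7% of the members' promoters and in 8.86% of all 32851 promoters. The NRF1 letters stood in 17.3% against 4.60%, and the YY1 letters in 28.0% against 6.05%. At least 1 of the 3 was found in 62.7% of the members' promoters and in 17.4% of all promoters. Both strands were searched, and matches of different motifs may overlap. As a ratio of shares, other letters differed less between the sets: CCAAT stood in 40.0% against 37.4%, CACGTG in 9.33% against 7.15% and GGGCGG in 52.0% against 35.7%. TATAAA was less frequent, at 6.67% against 13.6%. The median GC content was 58.7% for the members' promoters and 52.7% for all. Mrpl12 and Mrpl32, which both hold NRF1 letters, moved in opposite directions with PlaB. Their principal transcripts have 56.1% and 42.2% GC, and calls were not tallied by motif. Mrpl32 also had YY1 letters at bases -242 to -235 from the start, which Mrpl12 did not. Outside the matches marked in the printed stretches, Mrps26 also had NRF1 letters, Mrps21 ETS letters and Mrpl47 further YY1 letters. In the wider window Mrpl28 had no match to the 3 motifs, and Mrps12 had ETS letters from base 1 to base 7 after the start, outside the printed stretch, and YY1 letters further upstream. A match is a description of the sequence and not of binding.

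Each 2D PlaB library held 2515381 or 2765115 counts in all, each 2D control library 3909958 or 4118725, and blastoid libraries between 3684787 and 7607021. All 12 pluripotency markers had counts in every library. Summed markers of feeder fibroblasts reached 4497 and 5669 CPM (counts scaled to a common library size by TMM) in 2D PlaB cells, 3709 and 4099 CPM in 2D control cells, 375 to 656 CPM on blastoid day 1 and 41.9 to 63.3 CPM on day 5. Summed trophectoderm markers lay between 329 and 485 CPM on day 1 and between 1172 and 2229 CPM on day 5. Summed pluripotency markers changed too, with 15515 and 15773 CPM in 2D PlaB cells and 21418 and 23424 CPM in 2D control cells. They were at 5582 to 7062 CPM on day 1, 9909 to 10538 CPM on day 2 and 7978 to 20731 CPM on day 3. On day 4 they reached 8602 to 11276 CPM and on day 5 4839 to 9136 CPM. In these bulk libraries, fewer cells of a type and less RNA per cell cannot be told apart. What pluripotent, feeder or trophectoderm cells contribute to the values below was not tested. Replicate 3 of day 3 stood apart, with 12.1% of its counts from mitochondrially encoded protein genes, against 4.92% and 3.99% in the other libraries of that day.

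The members took a small and changing share of all counts. It was 0.934% and 0.818% in the libraries of 2D PlaB cells, and 0.802% and 0.842% in those of 2D control cells, so these groups overlapped. In blastoids the share was 1.12%, 1.08% and 1.20% on day 1 and 1.18%, 1.11% and 1.11% on day 2. It was 1.09%, 0.981% and 0.549% on day 3, where replicate 3 was far below the others. Day 4 libraries had 1.09%, 1.01% and 1.04%, and day 5 libraries 0.572%, 0.640% and 0.711%. The day 5 values lay below those of every other blastoid library except replicate 3 of day 3. The 83 cytosolic ribosomal protein genes took 8.26%, 11.6% and 10.3% of counts on day 5, against 6.81%, 7.43% and 7.27% on day 1.

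**Figure D1:**
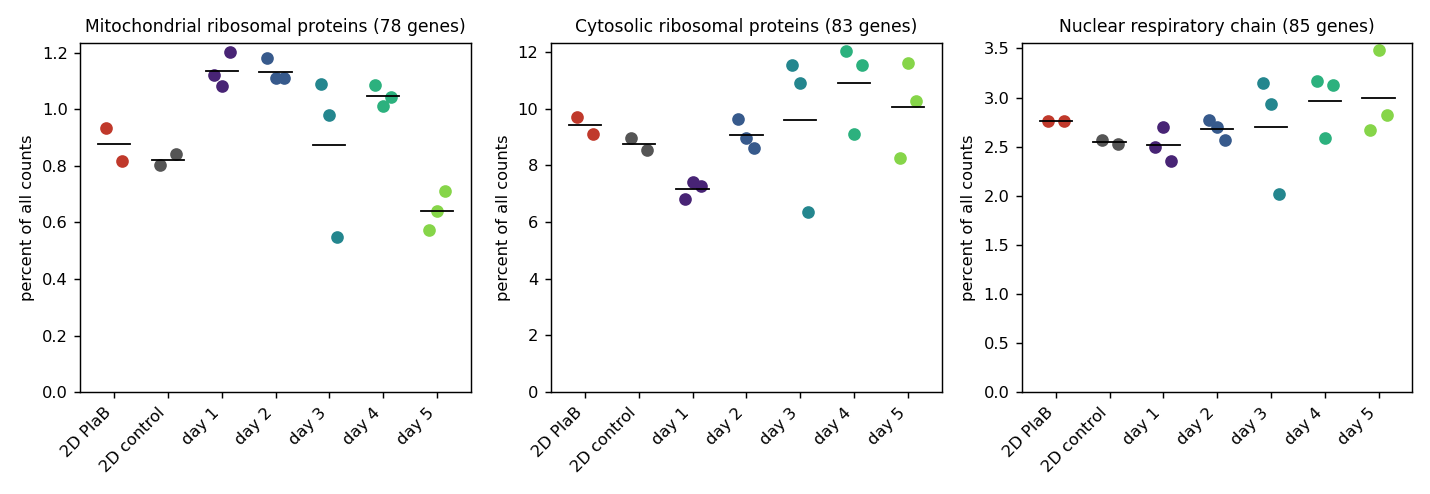
Share of all counts (percent, vertical axes starting at 0) taken by the mitochondrial ribosomal proteins, the cytosolic ribosomal proteins and the nuclear-encoded respiratory chain subunits, with a point for each library and a bar at each group's mean. The mitochondrial ribosomal proteins are lowest on day 5 (0.572% to 0.711%) and in 1 library of day 3 (0.549%), while the other lists show no such drop on day 5.

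Per length, the members spanned a wide range. Dividing CPM by the summed exonic length of all transcripts and averaging over the 7 groups gave a median of 32.9 CPM per kb, or 59.9 CPM per kb with the length of the principal transcript alone. The median was 48.1 CPM per kb for large-subunit symbols and 24.4 CPM per kb for small-subunit symbols. The highest levels were those of Mrpl42, with 209 CPM per kb, Mrps21, with 186 CPM per kb, and Mrpl22, whose product lines the exit tunnel, with 159 CPM per kb. The order depends on the length used: per principal transcript, Mrpl42 had 1154 CPM per kb, Mrpl20 ranked 2, Mrps21 ranked 3 and Mrpl22 ranked 5, and 3 of the 6 highest members were shared. By total exonic length, Mrpl34 ranked first in 2D PlaB cells, Mrpl42 in 2D control cells and on days 2, 3 and 4, Mrpl22 on day 1 and Mrps21 on day 5. Mrps34 and Mrpl33 had the lowest levels above 0, at 1.36 and 3.46 CPM per kb. With the length of the principal transcript alone, Mrpl33 had 53.1 CPM per kb. Mrpl53 had 0 counts in every library and was not tested. On the annotation, 695 of its 790 exonic bases are shared with Gm42688 on the same strand. In all, 33 members overlap exons of another gene, 8 of them on the same strand. Since the strand setting of the counting is not given in the sources used here, their counts are uncertain.

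PlaB treatment for 6 h moved the members in both directions, with more of them higher. Of 77 tested members, 34 were higher in 2D PlaB cells than in 2D control cells, where 25.9% of all tested genes were called higher, and 12 were lower, where 25.8% of all genes were called lower. The members' median log2 fold change was 0.27, against 0.00 over all tested genes. Among large-subunit symbols 21 of 48 were higher and 9 lower, and among small-subunit symbols 13 of 29 were higher and 3 lower.

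In 2D PlaB cells, 9 of 12 feeder fibroblast markers were also higher, with a median of 0.92, and their part in these counts was not tested. The highest fold changes among large-subunit members that averaged at least 10 CPM in 2D PlaB cells belonged to Mrpl28, Mrpl4, Mrpl38, Mrpl2 and Mrpl12. Mrpl28 (chr17:26123500-26126613, GRCm38, plus strand) had 227 and 173 CPM in 2D PlaB cells, against 17.2 and 24.2 CPM in 2D control cells (log2 fold change 3.27, SE 0.19, adjusted p = 4.2e-16). Mrpl4 (chr9:21002738-21008839), whose product lies at the exit tunnel, had 57.7 and 45.1 CPM in 2D PlaB cells, against 5.09 and 6.57 CPM in 2D control cells (log2 fold change 3.13, SE 0.29, adjusted p = 2.4e-11). Mrpl38 (chr11:116131817-116138868), a protein found only in mitochondrial ribosomes, had 28.3 and 24.0 CPM in 2D PlaB cells and 3.88 and 3.28 CPM in 2D control cells (log2 fold change 2.85, SE 0.37, adjusted p = 4.1e-08). Members are named as largest changes only where the libraries of both groups do not overlap, so separate groups are part of how they were chosen, here and below. Mrpl2, a core protein near the peptidyl transferase centre, had 64.7 and 58.8 CPM in 2D PlaB cells, against 9.69 and 13.9 CPM in 2D control cells (log2 fold change 2.39, SE 0.24, adjusted p = 2.9e-10). Mrpl12, the stalk protein that recruits translation factors, had 23.8 and 21.5 CPM in 2D PlaB cells and 3.15 and 5.56 CPM in 2D control cells (log2 fold change 2.37, SE 0.37, adjusted p = 2.0e-06). Mrpl10, which anchors the stalk, was higher too (log2 fold change 1.55, SE 0.37, adjusted p = 6.4e-04), as was Mrpl11 at the stalk base (log2 fold change 0.80, SE 0.16, adjusted p = 5.3e-05). Mrpl12 overlaps exons of Gm16755 and Mrpl10 those of Gm11574, both on the opposite strand. With the blastoid libraries in the same fit, whose spread was larger, 21 members were higher and 6 lower, where 13.1% of all tested genes were higher and 13% lower, and the adjusted p was 0.076 for Mrpl11, 0.09 for Mrpl58 and 0.051 for Mrps18c. Mrpl58 (log2 fold change 0.92, SE 0.26, adjusted p = 0.0038) was also not called without replicate 1 of 2D control (adjusted p = 0.064) or of 2D PlaB (adjusted p = 0.080).

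In the small subunit, Mrps24 had 224 and 148 CPM in 2D PlaB cells, against 52.8 and 49.3 CPM in 2D control cells (log2 fold change 1.86, SE 0.17, adjusted p = 1.3e-10), and it shares exonic sequence with Urgcp on the same strand. Mrps12 (chr7:28739641-28741820), the protein of the decoding centre, had 109 and 75.8 CPM in 2D PlaB cells, against 25.4 and 26.8 CPM in 2D control cells (log2 fold change 1.82, SE 0.20, adjusted p = 2.3e-09). Both 2D PlaB libraries were high in each gene. Mrps34, a protein specific to the mitochondrial small subunit, was hardly counted: 38 counts in both 2D PlaB libraries together and 1 count in both 2D control libraries, a ratio of 59.7 with an exact 95% interval of 10.1 to 2420 that covers counting error only. Of its 2064 exonic bases, 763 are shared with Nme3 on the same strand and 1309 with Mapk8ip3 on the opposite one, so this count and those given for it below are uncertain.

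Members that fell with PlaB came from both subunits. Mrps31 (chr8:22411361-22429665), a small-subunit protein, had 39.3 and 21.5 CPM in 2D PlaB cells, against 111 and 103 CPM in 2D control cells (log2 fold change -1.83, SE 0.21, adjusted p = 8.1e-09). Mrpl47 had 62.7 and 42.5 CPM in 2D PlaB cells and 178 and 158 CPM in 2D control cells (log2 fold change -1.68, SE 0.17, adjusted p = 3.2e-10). Mrpl1, the protein of the stalk through which spent transfer RNA leaves, had 93.8 and 99.5 CPM in 2D PlaB cells and 271 and 259 CPM in 2D control cells (log2 fold change -1.46, SE 0.14, adjusted p = 1.4e-10). In all 3, both 2D PlaB libraries were low. Mrps22 fell likewise (log2 fold change -1.29, SE 0.17, adjusted p = 1.1e-07), as did Mrpl9 (log2 fold change -1.62, SE 0.30, adjusted p = 2.5e-05) and Mrpl32, whose maturation by a mitochondrial protease gates ribosome assembly (log2 fold change -1.20, SE 0.15, adjusted p = 2.3e-08). Mrpl42, Mrps21, Mrps30, Mrps35 and Mrps18b had log2 fold changes between -0.09 and 0.04, and none was called.

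The direction went with base composition. Of the 20 members whose principal transcript has over 54% GC, 18 were higher with PlaB and 0 lower. Of the 17 members under 46% GC, 3 were higher and 6 lower. Over all tested genes the same classes had 1139 higher and 110 lower of 2163, and 488 higher and 1746 lower of 3964. Across the 77 members the log2 fold change and GC content had a Spearman correlation of 0.65, against 0.44 across all tested genes with a GC value; genes of a library share its depth and its base composition, so no p is given. The number of introns went with it less: the correlation was -0.16 over the members and -0.13 over all genes. Of the 6 members with 1 intron 5 were higher and 0 lower, and of the 23 members with 6 or more introns 7 were higher and 6 lower. Over all tested genes these classes had 144 higher and 109 lower of 542, and 1497 higher and 1863 lower of 6484. After removal of each library's trend with GC content, 34 members were higher and 13 lower, with a median log2 fold change of 0.28, where 25.4% of all tested genes were higher and 19.8% lower with a median of 0.07. Of the 34 members called higher before, 27 were still higher, and of the 12 called lower, 9 were still lower. Mrpl23 turned round, with a log2 fold change of 0.46 before the correction and -0.69 after it; it is named for that change, seen in its values.

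**Figure D2:**
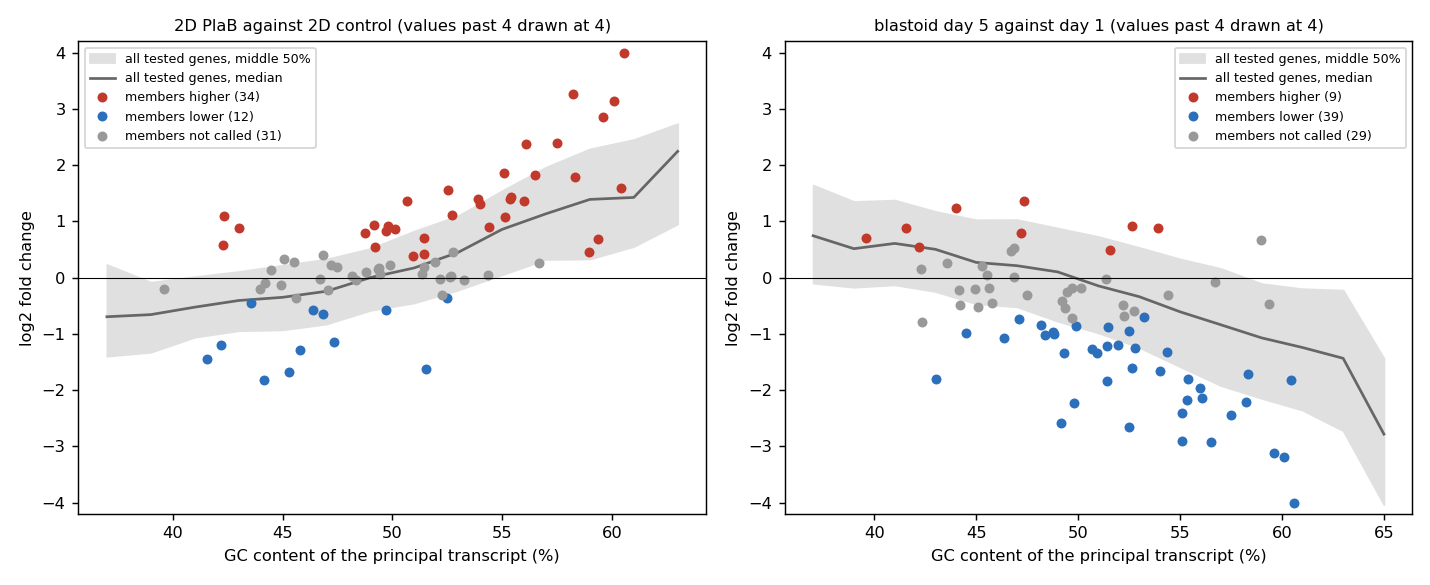
Log2 fold change (vertical axis) against GC content of the principal transcript (horizontal axis, percent) for 2D PlaB over 2D control (left) and blastoid day 5 over day 1 (right), with members as points and all tested genes as a median line with a band over their middle 50%. Members above 54% GC lie mostly above 0 with PlaB and mostly below 0 on day 5.

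Between blastoid days, 56 of the 77 tested members differed in the test of any change over days 1 to 5, a share close to that of all genes, of which 68.0% were called. Among the 56, the mean was highest on day 1 in 24 members, on day 2 in 16, on day 3 in 9, on day 4 in 3 and on day 5 in 4. It was lowest on day 5 in 37 members, on day 1 in 11, on day 3 in 7, on day 2 in 1 and on day 4 in 0. The same tally was not made over all called genes, so these counts show no trait of the members. Mrps5 varied least by this test, with day means of 54.2, 56.5, 52.0, 48.0 and 54.8 CPM on days 1 to 5 (adjusted p = 0.94). Mrpl3, a core protein of the large subunit, was not called either (adjusted p = 0.55).

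Day 5 against day 1 showed 39 members lower, where 25.5% of all tested genes were called lower, and 9 members higher, where 25.5% were called higher. The median log2 fold change was -0.74 over the members and -0.02 over all tested genes. By symbol, 25 of 48 large-subunit and 14 of 29 small-subunit members were lower, while 3 and 6 were higher. Of the 45 members with no exonic overlap with another gene, 24 were lower and 6 higher.

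Mrpl4 had 10.7, 6.69 and 17.3 CPM on day 5, against 115, 106 and 101 CPM on day 1 (log2 fold change -3.19, SE 0.36, adjusted p = 8.8e-07). Mrpl38 had 6.65, 10.3 and 9.12 CPM on day 5 and 84.4, 77.1 and 63.8 CPM on day 1 (log2 fold change -3.11, SE 0.26, adjusted p = 3.7e-08). Mrpl10 had 8.15, 5.58 and 8.73 CPM on day 5 and 50.3, 48.8 and 44.3 CPM on day 1 (log2 fold change -2.66, SE 0.31, adjusted p = 1.1e-06). Each of these 3 large-subunit genes was several times lower in every day 5 library than in any day 1 library. In the small subunit, Mrps12 had 16.1, 18.4 and 35.7 CPM on day 5, against 178, 171 and 189 CPM on day 1 (log2 fold change -2.93, SE 0.30, adjusted p = 3.0e-07). Mrps24 had 24.2, 30.1 and 51.6 CPM on day 5 and 234, 242 and 319.9 CPM on day 1 (log2 fold change -2.90, SE 0.36, adjusted p = 2.4e-06). Mrps26, a protein specific to the mitochondrial small subunit, had 8.15, 13.7 and 15.5 CPM on day 5 and 79.6, 77.8 and 67.4 CPM on day 1 (log2 fold change -2.59, SE 0.25, adjusted p = 1.1e-07). Mrps34 had 0 counts in the 3 day 5 libraries and 79 counts on day 1, which makes it at least 18.1-fold lower on day 5, taking 3 counts as the limit that 0 counts in the whole group allow.

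Other members with distinct roles were lower on day 5 as well. They included Mrpl12 (log2 fold change -2.15, SE 0.38, adjusted p = 1.1e-04), Mrpl58, the peptidyl-tRNA hydrolase that frees stalled ribosomes (log2 fold change -2.22, SE 0.34, adjusted p = 2.2e-05), Mrpl44, which has an RNase III-like fold (log2 fold change -1.20, SE 0.30, adjusted p = 0.0026), and Mrpl45, which anchors the ribosome at the inner membrane (log2 fold change -0.86, SE 0.26, adjusted p = 0.0093). The call on Mrpl45 was lost without replicate 2 of day 5 (log2 fold change -0.73, adjusted p = 0.056). Mrps27, a pentatricopeptide repeat protein, had a log2 fold change of -0.68 and was not called (adjusted p = 0.081), but was called without replicate 2 of day 5 (adjusted p = 0.042) or without replicate 3 of day 3 (adjusted p = 0.010).

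The 9 members that were higher on day 5 than on day 1 were Mrps18c, Mrps33, Mrps21, Mrps6, Mrps36, Mrps14, Mrpl1, Mrpl32 and Mrpl9, although the libraries of Mrpl1 overlapped. Mrps33 (chr6:39801804-39810988), specific to the mitochondrial small subunit, had 219, 231 and 207 CPM on day 5, against 81.7, 78.1 and 117 CPM on day 1 (log2 fold change 1.25, SE 0.24, adjusted p = 2.4e-04). Mrps18c had 58.6, 97.6 and 37.8 CPM on day 5 and 20.7, 33.3 and 21.7 CPM on day 1 (log2 fold change 1.36, SE 0.36, adjusted p = 0.0034). Mrps36 had 147, 184 and 134 CPM on day 5 and 75.2, 92.7 and 99.9 CPM on day 1 (log2 fold change 0.79, SE 0.26, adjusted p = 0.014). Mrps33 was the most even of the 3 across the day 5 libraries. Mrps6, which shares exonic sequence with Slc5a3 and Gm49711 on the same strand, averaged 54.5 ± 8.25 CPM on day 5 and 29.8 ± 6.28 CPM on day 1 (SD, n = 3 each), with no overlap (log2 fold change 0.88, SE 0.22, adjusted p = 0.0024, edgeR). Leaving out some single libraries left fewer such calls: 3 without replicate 1 of day 1, 5 without replicate 2 of day 1 and 4 without replicate 2 of day 5. In the same order, 19.7%, 20.7% and 21.5% of all tested genes were then called higher. Without replicate 3 of day 5 or replicate 3 of day 3, 10 members were higher, where 23.9% and 27.4% of all genes were. Without replicate 1 of day 1, the adjusted p was 0.060 for Mrps21, 0.094 for Mrps36, 0.15 for Mrps14 and 0.099 for Mrpl32. Without replicate 2 of day 5, it was 0.067 for Mrps21, 0.073 for Mrps36, 0.071 for Mrps14 and 0.085 for Mrpl32. Without replicate 2 of day 1, it was 0.12 for Mrps14 and 0.14 for Mrpl32, and without replicate 1 of day 5 it was 0.071 for Mrpl32.

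Base composition went with these changes too, in the opposite direction to PlaB. The Spearman correlation of the log2 fold change with GC content was -0.55 across the 77 members and -0.35 across all tested genes. With the GC trend of each library removed, 43 members were lower and 6 higher, with a median of -0.79, where 26.4% of all tested genes were lower and 23.1% higher with a median of -0.07, and 37 of the 39 members called lower and 5 of the 9 called higher kept their call. The correction ended the calls on Mrpl32 (log2 fold change 0.03, adjusted p = 0.88), Mrps36 (log2 fold change 0.54, adjusted p = 0.076) and Mrps14 (log2 fold change 0.13, adjusted p = 0.74), and Mrps30 became lower (log2 fold change -0.93, adjusted p = 0.0027). With total counts in place of TMM, which moved the median of all genes to -0.35, 2 members were higher, where 17.3% of all genes were. The log2 fold changes, which contain that shift, of 0.21 for Mrpl32, 0.58 for Mrps21, 0.54 for Mrps6, 0.46 for Mrps36 and 0.38 for Mrps14 were not called (adjusted p 0.057 to 0.33). Of the 34 members that were higher with PlaB, 24 (70.6%) were lower on day 5 than on day 1, which is 61.5% of the 39 lower ones, while 50.6% of all tested members were lower. Over the 10962 genes tested in both fits, 46.1% of those higher with PlaB were lower on day 5, and 26.8% of all. Of the 12 members that were lower with PlaB, 4 (33.3%) were higher on day 5, which is 44.4% of the 9 higher ones. Over all genes, 40.2% of those lower with PlaB were higher on day 5, and 28.2% of all. The libraries of these 2 comparisons are separate.

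**Figure D3:**
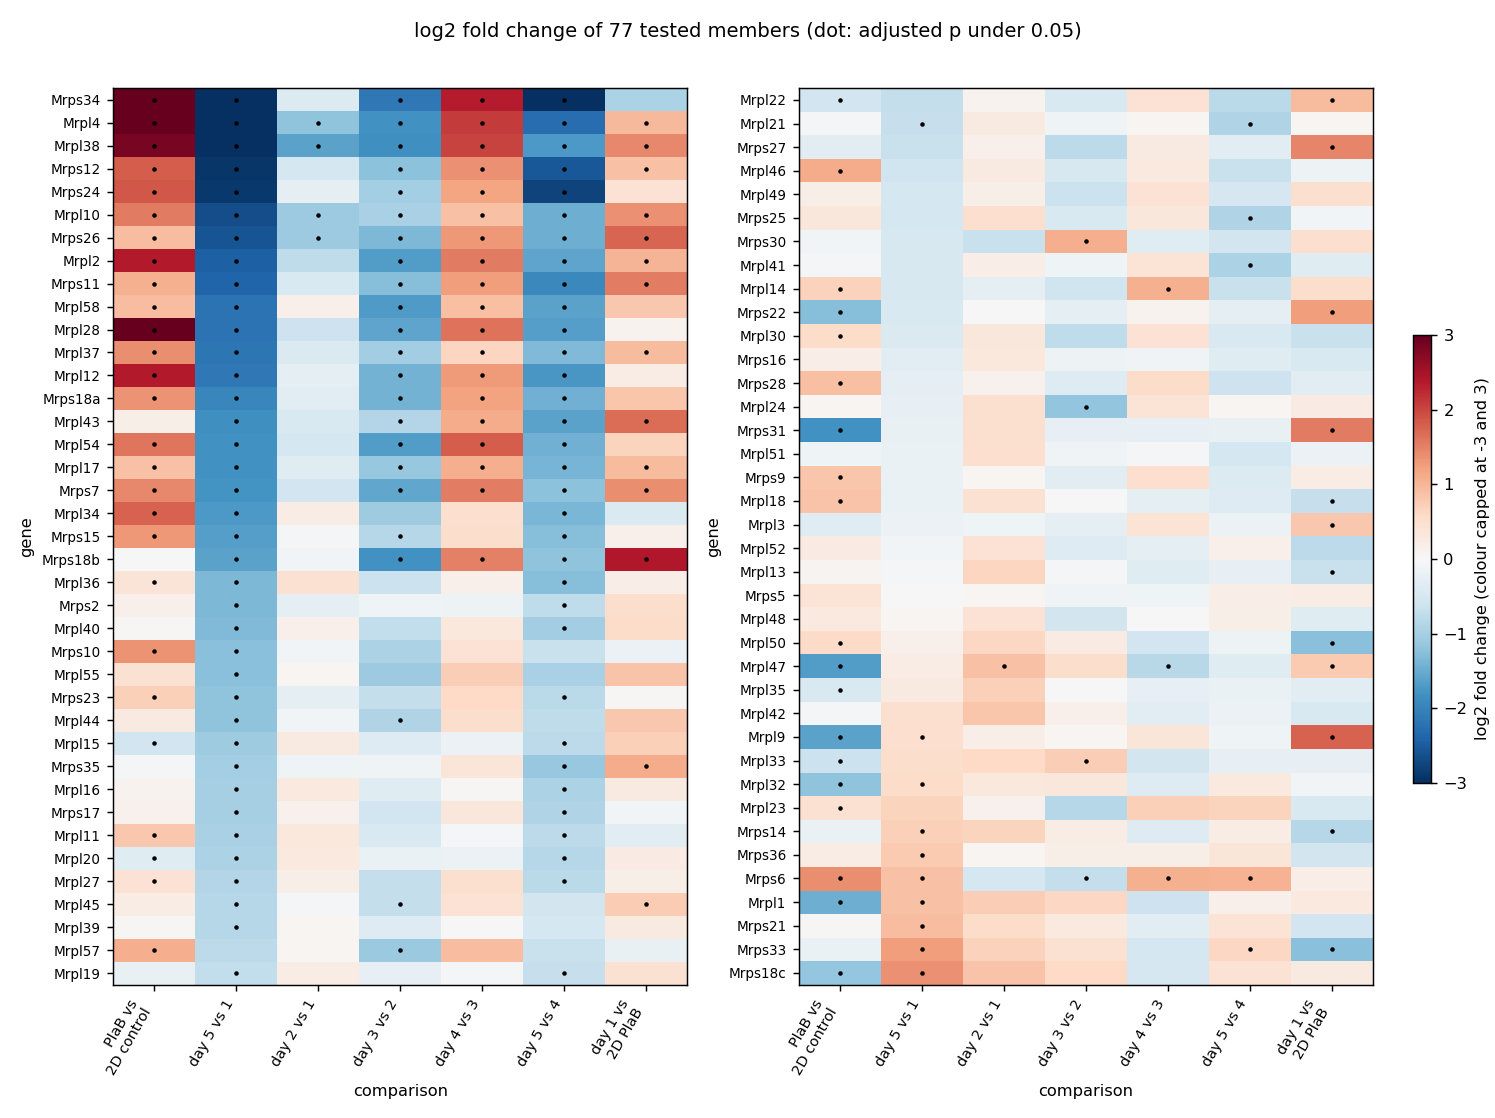
Log2 fold change (colour, capped at -3 and 3) of the 77 tested members (vertical axes, ordered by day 5 over day 1) in the 7 comparisons (horizontal axes), where a dot marks an adjusted p under 0.05. Blue fills most of the columns of day 5 against day 1 and day 5 against day 4, where 39 and 36 members were called lower. Red fills most of the PlaB column, where 54 members were above 0 and 34 were called higher.

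On day 2 against day 1, 1 member was higher, Mrpl47, where 1.69% of all tested genes were called higher. Another 4 were lower, Mrpl4, Mrpl38, Mrpl10 and Mrps26, where 5.27% of all genes were called lower, so both shares are near those of all genes. The members' median was 0.13 and that of all genes 0.03. Mrpl38 had 21.3, 22.9 and 29.8 CPM on day 2, against 84.4, 77.1 and 63.8 CPM on day 1 (log2 fold change -1.60, SE 0.24, adjusted p = 3.3e-04), and Mrps26 averaged 35.1 ± 0.793 CPM on day 2, against 74.9 ± 6.57 CPM on day 1 (SD, n = 3 each, log2 fold change -1.09, SE 0.23, adjusted p = 0.0051, edgeR). The call on Mrpl4 was lost without any 1 library of the 5 other than replicate 3 of day 1, with adjusted p between 0.085 and 0.12, and with the GC correction (log2 fold change -0.35, adjusted p = 0.55). Mrpl47 lost its call with that correction too (adjusted p = 0.081), and without replicate 1 or 2 of day 1 or replicate 1 or 3 of day 2 (adjusted p between 0.076 and 0.16), when 0 members were higher. Without replicate 3 of day 1, 6 members were called higher, where 2.44% of all genes were. Replicate 3 of day 3 enters through the shared filter, scaling and spread. Without that library, 8 members were higher and 6 lower, where 4.42% and 7.97% of all genes were. With any other single library of days 1 and 2 left out, 2 members were called lower. The share of all genes was then 2.31% to 2.82%.

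Day 3 against day 2 showed 25 members lower, where 13.5% of all tested genes were called lower, and 2 higher, where 12.0% were called higher. The median was -0.54 over the members and 0.00 over all genes. Mrpl4 had 19.3, 15.4 and 4.42 CPM on day 3, against 44.0, 48.8 and 47.0 CPM on day 2 (log2 fold change -1.81, SE 0.35, adjusted p = 0.0016), and Mrps18b had 12.9, 11.8 and 1.86 CPM on day 3, against 34.5, 32.7 and 28.4 CPM on day 2 (log2 fold change -1.81, SE 0.41, adjusted p = 0.0042). In both genes the last library of day 3 was the lowest. Mrps30 was higher, with 62.7, 77.3 and 88.6 CPM on day 3 and 46.6, 34.8 and 26.2 CPM on day 2 (log2 fold change 1.09, SE 0.25, adjusted p = 0.004). Mrpl33 was higher as well (log2 fold change 0.74, SE 0.25, adjusted p = 0.036), a call that was lost without any 1 library of these days other than replicate 3 of day 3 (adjusted p between 0.053 and 0.14) and with the GC correction (adjusted p = 0.083). That correction left 19 members lower. Without replicate 3 of day 3, 19 members were lower and 2 higher, where 9.07% of all genes were lower, and the median was -0.21 over the members and -0.03 over all genes. Without replicate 1 of day 3, 45 members were lower and 1 higher, where 15.5% of all genes were lower, and without replicate 3 of day 2, 16 were lower and 1 higher, where 7.21% of all genes were lower. Several further members overlap exons of another gene on the opposite strand, among them Mrps30, Mrps18b, Mrpl47, Mrpl9, Mrps26, Mrpl18, Mrpl58, Mrpl44 and Mrps27, and Mrpl33 overlaps Gm43809 and Mrpl3 overlaps Gm38077 on the same strand.

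Day 4 against day 3 ran the other way, with 21 members higher, where 15.6% of all tested genes were called higher, and 1 lower, where 12.3% were called lower. The median was 0.40 over the members and -0.04 over all genes. In the same step 9 of 12 feeder fibroblast markers were lower (median -1.92) and 7 of 10 tested trophectoderm markers higher (median 2.35), and their part in the members' change was not tested. Summed trophectoderm markers were at 1035, 1085 and 985 CPM in the day 4 libraries, against 63.1, 94.3 and 96.8 CPM in the day 3 libraries, and summed feeder markers at 120.1, 18.3 and 49.2 CPM on day 4, against 179, 228 and 471 CPM on day 3. Mrpl54 had 60.7, 56.8 and 71.2 CPM on day 4, against 27.6, 19.7 and 5.58 CPM on day 3 (log2 fold change 1.81, SE 0.33, adjusted p = 5.0e-04), and Mrpl38 had 19.5, 31.6 and 34.1 CPM on day 4, against 6.61, 6.80 and 7.44 CPM on day 3 (log2 fold change 2.03, SE 0.26, adjusted p = 1.8e-05). The member called lower was Mrpl47 (log2 fold change -0.83, SE 0.23, adjusted p = 0.012), which was not called without replicate 3 of day 4 (adjusted p = 0.079) or with the GC correction (adjusted p = 0.099). With that correction 14 members were higher and the median was 0.28, where 12.3% of all genes were higher with a median of 0.07. Without replicate 3 of day 3, 17 members were higher and 6 lower, where 13% of all tested genes were higher and 9.01% lower. The median was then 0.03 over the members and 0.01 over all genes, so the higher median of this step rested on that library. Without replicate 1 of day 3, 38 were higher, where 15.8% of all genes were higher. Without replicate 1 or 3 of day 4, the members called lower were 3 and 0, where 9.66% and 6% of all genes were lower.

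With all libraries in the fit, day 5 against day 4 brought the broadest step between neighbouring days. Without replicate 1 of day 3, day 3 against day 2 had more members lower, 45, than the 36 found here. Of the 77 members, 36 were lower, where 14.5% of all tested genes were called lower, and 2 higher, where 14.1% were called higher. The median was -0.69 over the members and -0.02 over all genes. Lower members came from both subunits, 22 of 48 large and 14 of 29 small. Mrps24 had 24.2, 30.1 and 51.6 CPM on day 5, against 283, 192 and 251 CPM on day 4 (log2 fold change -2.77, SE 0.36, adjusted p = 2.3e-05). Mrps12 had 16.1, 18.4 and 35.7 CPM on day 5 and 139, 141 and 131 CPM on day 4 (log2 fold change -2.54, SE 0.30, adjusted p = 1.1e-05). Mrpl4 had 10.7, 6.69 and 17.3 CPM on day 5 and 48.5, 57.4 and 64.9 CPM on day 4 (log2 fold change -2.28, SE 0.36, adjusted p = 1.4e-04). Mrps35, a protein specific to the mitochondrial small subunit, had 74.2, 69.2 and 87.7 CPM on day 5 and 185, 159.7 and 166 CPM on day 4 (log2 fold change -1.14, SE 0.19, adjusted p = 2.6e-04). Mrps34, with 0 counts on day 5 and 77 counts on day 4, was at least 15.8-fold lower on day 5. The 2 higher members were Mrps6 (log2 fold change 1.05, SE 0.22, adjusted p = 0.0015) and Mrps33 (log2 fold change 0.63, SE 0.24, adjusted p = 0.0499). Mrps33 was not called without replicate 2 or 3 of day 4 or without any 1 library of day 5 (adjusted p between 0.066 and 0.23), nor with the GC correction (adjusted p = 0.25). With the GC trend removed, 37 members were lower and 2 higher, with a median of -0.74, where 15% of all tested genes were lower and 12.8% higher with a median of -0.04, and 35 of the 36 lower calls were kept. Without replicate 3 of day 3, 48 members were lower, where 17.1% of all genes were lower. The smallest count, 24, arose without replicate 1 and likewise without replicate 2 of day 5, where 9.19% and 9.38% of all genes were lower.

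**Figure D4:**
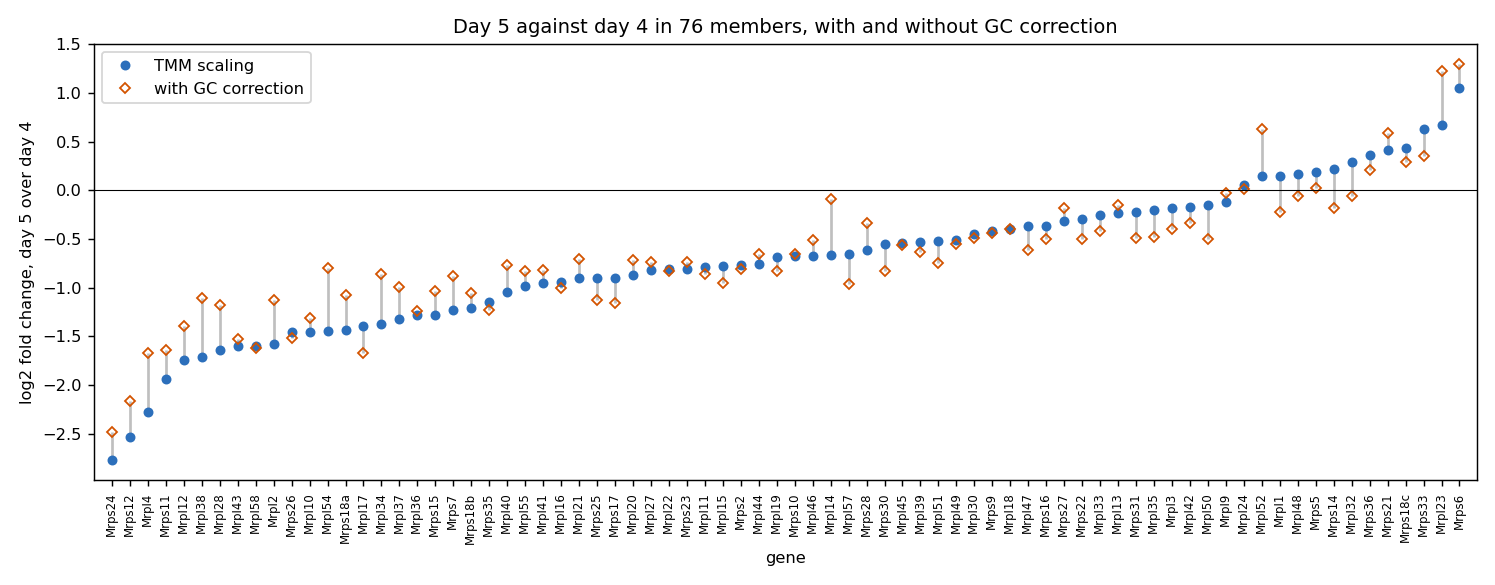
Log2 fold change of day 5 over day 4 (vertical axis) for 76 members (horizontal axis, ordered by value), as filled points with TMM scaling and open diamonds after removal of each library's GC trend. Most members lie below 0 under both settings, with 36 and 37 called lower. Mrps34 is left out because it had 0 counts on day 5.

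The paralogs of 1 small family parted ways. Mrps18a had 31.1, 23.1 and 48.9 CPM on day 5, against 141, 121 and 141 CPM on day 1 (log2 fold change -1.96, SE 0.34, adjusted p = 8.5e-05). Mrps18b had 9.66, 9.76 and 13.8 CPM on day 5, against 31.0, 41.0 and 29.9 CPM on day 1 (log2 fold change -1.60, SE 0.41, adjusted p = 0.0031). Mrps18c, as given above, was higher on day 5. With PlaB the order was different: Mrps18a was higher (log2 fold change 1.36, SE 0.22, adjusted p = 3.6e-06), Mrps18c was lower (log2 fold change -1.15, SE 0.24, adjusted p = 1.2e-04) and Mrps18b was not called (log2 fold change 0.02, adjusted p = 0.98). Differences between the paralogs were not tested as such. The values are without GC correction, and the principal transcripts of Mrps18a, Mrps18b and Mrps18c have 56.0%, 52.6% and 47.3% GC. Mrps18c overlaps Gm43511 on the same strand and Mrps18b overlaps Gm16279 on the opposite one.

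**Figure D5:**
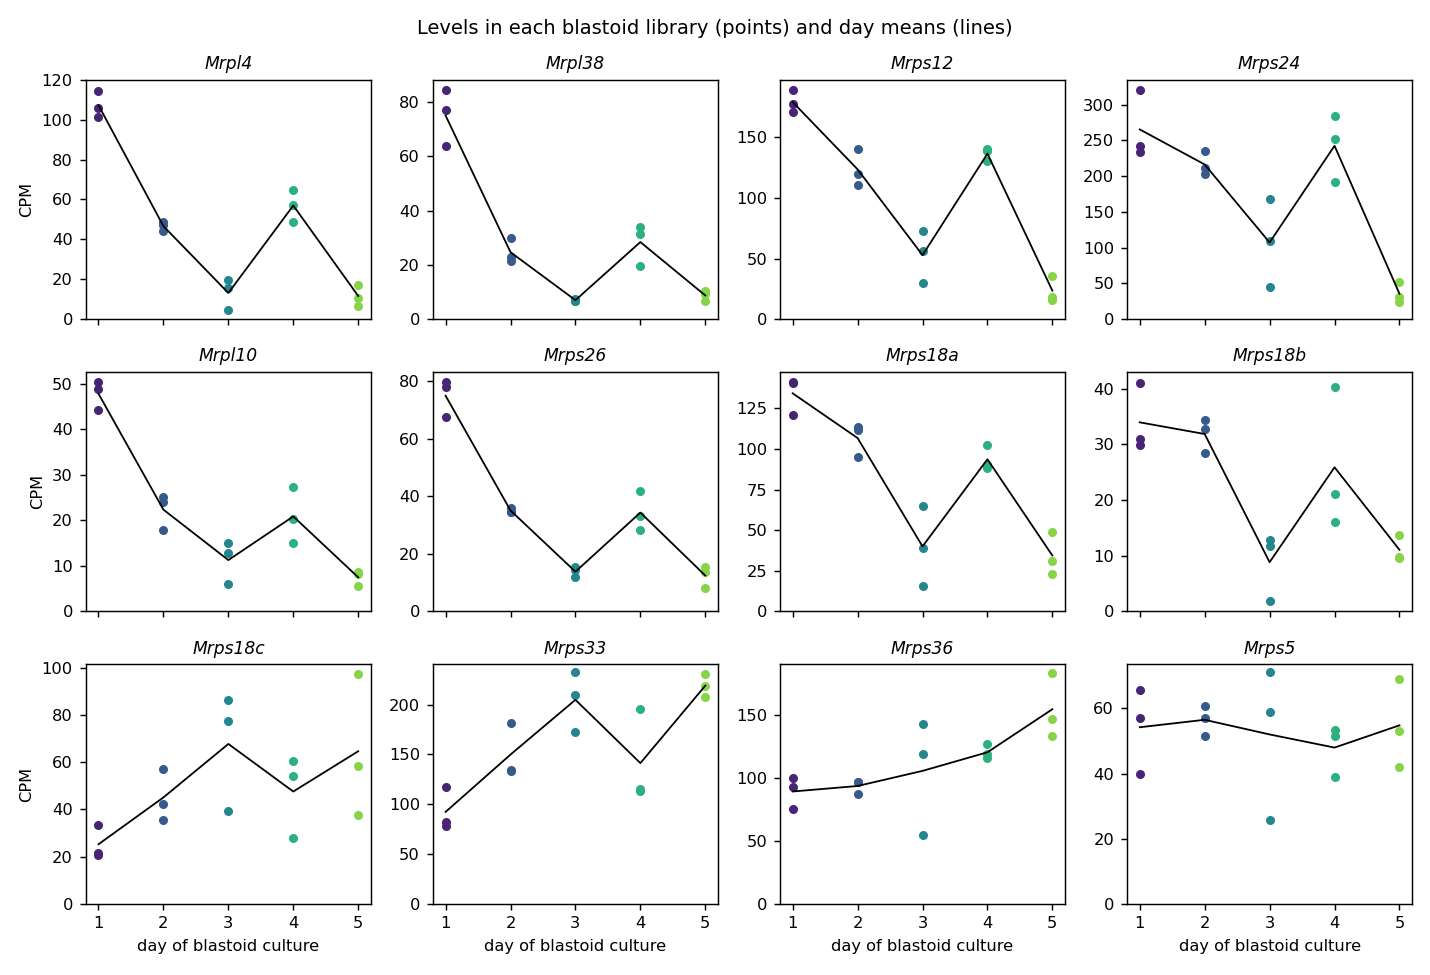
Level (CPM, vertical axes starting at 0) of 12 members by day of blastoid culture (horizontal axes), with a point for each library and a line through the day means. The upper 8 genes are lower on days 3 and 5 than on days 1 and 4, whereas Mrps18c, Mrps33 and Mrps36 are highest on day 3 or 5 and Mrps5 shows no called change. The levels are drawn without GC correction. Log2 fold change and GC content had Spearman correlations of -0.65 (members) and -0.43 (all genes) for day 3 against day 2. For day 4 against day 3 they were 0.69 and 0.57.

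Blastoid day 1 was also set against the 2D PlaB cells, both labelled as PlaB-treated for 6 h. Culture format and deposited table differ along with the groups and cannot be told apart from them, and 11 of 12 feeder markers were lower on day 1, a part that was not tested. Of 77 members 21 were higher on day 1, where 21.9% of all tested genes were called higher, and 5 were lower, where 17.0% were called lower. The median was 0.25 over the members and 0.14 over all genes. Mrps18b had 31.4, 40.9 and 30.0 CPM on day 1, against 6.48 and 6.32 CPM in 2D PlaB cells (log2 fold change 2.40, SE 0.53, adjusted p = 9.9e-04). Mrpl9 had 46.6, 47.2 and 36.2 CPM on day 1, against 7.34 and 17.8 CPM in 2D PlaB cells (log2 fold change 1.77, SE 0.29, adjusted p = 4.6e-05). Mrpl43, which overlaps exons of Twnk on the opposite strand, had 131, 139.6 and 161 CPM on day 1 and 52.7 and 37.1 CPM in 2D PlaB cells (log2 fold change 1.68, SE 0.27, adjusted p = 3.1e-05). Mrps26 was higher too (log2 fold change 1.73, SE 0.28, adjusted p = 3.0e-05). Members lower on day 1 included Mrpl50, with 80.1, 71.2 and 113 CPM on day 1 and 220.3 and 200.3 CPM in 2D PlaB cells (log2 fold change -1.26, SE 0.22, adjusted p = 1.0e-04), and Mrps33 (log2 fold change -1.25, SE 0.25, adjusted p = 3.4e-04). Mrps14 (log2 fold change -0.86, SE 0.26, adjusted p = 0.011) was not called without either 2D PlaB library or without replicate 1 of day 1 (adjusted p 0.051 to 0.084), nor with the GC correction (adjusted p = 0.28). Mrpl18 (log2 fold change -0.69, SE 0.24, adjusted p = 0.026) was not called without either 2D PlaB library or without replicate 2 of day 1 (adjusted p 0.079 to 0.16). Without replicate 1 or 2 of day 1, 3 members were lower, where 14.2% and 14.5% of all genes were lower. With the GC correction 8 were lower, where 16.3% of all genes were lower, and with only the 5 libraries of these groups in the fit 26 were higher and 14 lower, where 24% of all genes were higher and 24.2% lower. With total counts in place of TMM, which shifted the median of all genes to 0.43, 33 members were higher and 3 lower. Of all genes, 29.5% were then higher and 12% lower.

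Genes that work with these proteins were counted from lists drawn up by function. As earlier results of these data were known by then, the lists give no independent support. Genes named from them, here and below, were taken as up to 3 per list with the smallest adjusted p in a comparison. The 5 ribosomal proteins with other symbols are all given. Of 12 mitochondrial translation factors, 6 were lower and 0 higher on day 5 than on day 4, among them Tufm, the elongation factor that brings transfer RNA to the ribosome (log2 fold change -1.47, adjusted p = 3.9e-04), and Tsfm, its exchange factor (log2 fold change -1.36, adjusted p = 8.4e-04). Of 26 genes of ribosome assembly and ribosomal RNA modification, 13 were lower and 0 higher, with Mpv17l2 (log2 fold change -3.49) and the 2 RNA methyltransferases Mrm3 (log2 fold change -2.28) and Mrm2 (log2 fold change -2.26) among them. Their medians were -0.69 and -0.81, against -0.69 for the ribosomal proteins themselves and -0.02 over all tested genes. Of all tested genes, 14.5% were called lower and 14.1% higher in this step. Of the 5 mitochondrial ribosomal proteins with other symbols, 1 was lower on day 5 than on day 4, Aurkaip1 (log2 fold change -1.29, adjusted p = 0.0019), and 0 were higher. Their median was 0.09, with log2 fold changes of 0.09 for Dap3, 0.09 for Ptcd3, 0.40 for Chchd1 and 0.03 for Gadd45gip1, none of them called. On day 5 against day 1, Chchd1 was higher (1.40) and Aurkaip1 lower (-1.23), both as log2 fold changes. The other 3 were not called. In that comparison 4 of the 5 had log2 fold changes below 0, with a median of -0.24 and a lowest value of -1.45. Of 10 tested transcription factors and coactivators of mitochondrial genes, 3 were higher and 0 lower on day 5 than on day 4, including Yy1 (log2 fold change 1.36, adjusted p = 0.001).

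Cytosolic ribosomal proteins and respiratory chain subunits gave other counts. Of all tested genes, 14.1% were higher and 14.5% lower on day 5 than on day 4, and both lists lay below these shares. On day 5 against day 1, 25.5% of all tested genes were higher and 25.5% lower. Of 83 cytosolic ribosomal proteins, 6 were higher and 8 lower on day 5 than on day 4, with a median of 0.20, and 49 were higher and 6 lower on day 5 than on day 1, with a median of 1.01. Of 82 tested nuclear-encoded respiratory chain subunits, 9 were higher and 11 lower on day 5 than on day 4, with a median of 0.18. On day 5 against day 1, 32 were higher and 13 lower, with a median of 0.43. Differences between the lists were not tested.

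With PlaB in 2D, the accompanying lists were mixed. Of all tested genes, 25.9% were called higher and 25.8% lower. Of 12 translation factors 2 were higher and 3 lower, with Tsfm higher (log2 fold change 2.15) and the initiation factor Mtif2 lower (log2 fold change -2.15). Of 25 tested assembly genes 7 were higher and 7 lower, both near the shares of all genes. Of 20 tested genes of mitochondrial DNA copying, transcription and RNA processing, 3 were higher and 9 lower, including Tefm, the elongation factor of the mitochondrial polymerase (log2 fold change -3.19). Of 9 tested transcription factors and coactivators, 2 were higher and 5 lower, among them Yy1 (log2 fold change -1.25) and Nrf1 (log2 fold change -1.26). All 10 tested mitochondrially encoded protein genes were higher, with a median of 0.99.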

How the data were processed

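Smart-seq2 libraries of 19 samples in 7 groups were analysed. The deposited values are raw counts per gene symbol made by the authors with STAR 2.7.10b and HTSeq 0.13.5 on mm10, per the submitters' processing notes. For annotation and strand setting, the labels give nothing. Members and lists were chosen with earlier results of these data known.

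From the counts, edgeR 4.0.16 (R 4.3.3, limma 3.58.1) was run on each table as deposited, and on both together for day 1 against 2D PlaB: filterByExpr (minimum count 10, minimum total 15), TMM scaling and quasi-likelihood tests with Benjamini-Hochberg adjustment over all tested genes at 0.05. The fits tested 11183, 15121 and 16304 genes. "Higher" and "lower" mean an adjusted p under 0.05. The SE is the log2 fold change divided by the root of the F statistic. Groups were taken from the sample titles. The labels' description field names the other table for every sample (the blastoid table for 2D samples and the reverse), but the column headers of both tables match the titles, and columns were assigned by them.

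Named genes are, per comparison and direction, the called members of largest change with 10 CPM or more on average in whichever group is higher, and whose libraries do not overlap (6 for the contrast within 2D and for day 5 against day 1, 3 for steps between days, 4 for day 1 against 2D PlaB), members fixed for their roles, and the 3 highest and 3 lowest per length. Gene positions, GC content, lengths and overlaps came from GENCODE M21 (GRCm38), in which all 78 members matched, and promoters from RefSeq (GRCm38.p6). The GC correction removed a loess trend (span 0.5) from each library.

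Deviations of same-numbered libraries correlated at -0.02 in 2D and between -0.30 and 0.22 among blastoid days. They were over 0.1 in all 3 pairs only for days 2 and 4, which are not compared directly, so no pairing was assumed. Alternatives were other scalings, no filter, DESeq2 1.42.0, limma-voom, the GC correction, a replicate block, other samples in the fit, a fold change minimum and each library left out. Leaving out replicate 3 of day 3 where day 3 is not compared, and counting members without overlap, were chosen after seeing the data. Library totals of 2515381 to 7607021 counts limit members with few counts, and intervals and floors cover counting error only. Python 3.11.15 was used for summaries.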

Additional observations from a re-analysis of the deposited data

How the results depend on the processing

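The named members, which do not include Mrpl23, gave 764 values under alternatives other than leaving out a library. Of these, 713 kept their side of the threshold, 40 lost the call and 11 gained it. Among values called in either setting, 0 changed direction. Values uncalled in both settings were counted as kept whatever their sign. Of all members, 1, Mrpl23, was called higher for PlaB against control and lower with the GC correction (log2 fold change -0.69). Counts of members moved by over 1.5 times as follows, for the members called higher unless stated. PlaB against control gave 21 higher and 6 lower with other samples in the fit, and 20 and 7 with an absolute log2 fold change of at least 1. Day 5 against day 1 gave 2 with total counts, 4 with no filter and 2 with the fold minimum. Day 2 against day 1 gave 3 with no filter, 2 with DESeq2, 0 with the GC correction or the fold minimum, and 8 without replicate 3 of day 3. Day 3 against day 2 gave 1 with total counts, no filter, the GC correction or the fold minimum. Day 4 against day 3 gave 2 lower with RLE size factors or other samples in the fit, 5 lower with DESeq2 and 0 lower with the fold minimum. Day 5 against day 4 gave 1 with total counts, TMM without mitochondrially encoded genes, no filter or the fold minimum. Day 1 against 2D PlaB gave 33 higher and 3 lower with total counts, 3 lower with no filter, 8 lower with the GC correction, 14 lower with other samples in the fit, and 13 higher and 2 lower with the fold minimum. With limma-voom no count moved by that much. The median level was 59.9 CPM per kb with the principal transcript. Calls over all tested genes moved under these settings as well, and the fold minimum was not counted over all genes. For PlaB against control, 13.1% were higher and 13% lower with other samples in the fit. For day 2 against day 1, 0.797% were higher with no filter, 2.76% with DESeq2 and 1.3% with the GC correction. For day 3 against day 2, 10.1% were higher with total counts, 3.41% with no filter and 9.06% with the GC correction. For day 4 against day 3, 14.2% were lower with RLE size factors, 12.2% with other samples in the fit and 16.2% with DESeq2. For day 5 against day 4, 9% were higher with total counts, 14.1% with TMM without mitochondrially encoded genes and 3.75% with no filter. For day 1 against 2D PlaB, 6.09% were lower with no filter. For day 5 against day 1, 17.3% were higher with total counts and 7.92% with no filter. The cause was not tested in any of these.

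The labels give the replicate numbers no meaning, and in no pair of groups compared directly did all same-numbered libraries correlate over 0.1 in their deviations. With a replicate block, PlaB against control gave 32 higher and 12 lower, day 5 against day 1 gave 8 and 38, day 2 against day 1 gave 1 and 3, day 3 against day 2 gave 1 and 22, day 4 against day 3 gave 18 and 1, and day 5 against day 4 gave 1 and 30. With the block, 25.2% of all tested genes were higher and 25.4% lower for PlaB against control. For day 5 against day 1 both shares were 24.2%. The other steps gave, in the order above, 1.07% and 4%, 9.81% and 11.4%, 13.6% and 9.99%, and 12.5% and 12.7%. With the block and the GC correction together, day 2 against day 1 gave 0 higher, day 3 against day 2 gave 1 higher and 16 lower, and day 4 against day 3 gave 11 higher and 0 lower. Of all genes, 0.88% were then higher in the first step. The other 2 steps had 7.65% higher and 9.56% lower, and 10.2% higher and 5.89% lower.

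Leaving out 1 library at a time gave 25 to 34 higher and 10 to 11 lower for PlaB against control, 3 to 10 and 34 to 48 for day 5 against day 1, 0 to 8 and 2 to 6 for day 2 against day 1, 1 to 2 and 16 to 45 for day 3 against day 2, 15 to 38 and 0 to 6 for day 4 against day 3, 1 to 3 and 24 to 48 for day 5 against day 4, 12 to 20 and 2 to 5 for day 1 against 2D PlaB, and 44 to 70 for any change over days. Where this left 1 library in a 2D group, that library is assumed to vary like the other group's. The shares of all tested genes moved too. Those higher and lower were 19.7% to 27.4% and 20.4% to 27.4% for day 5 against day 1. They were 0.381% to 4.42% and 2.31% to 7.97% for day 2 against day 1. Day 3 against day 2 had 4.66% to 13.9% and 7.21% to 15.5%. Day 4 against day 3 had 10% to 15.8% and 6% to 13.1%. Day 5 against day 4 had 8.82% to 17% and 9.19% to 17.1%. Day 1 against 2D PlaB had 18.5% to 21.1% and 14.2% to 16% with a day 1 library left out. Both shares were smaller without a 2D PlaB library. For PlaB against control, both shares were below the 25.9% and 25.8% of the full fit whichever library was left out. Any change over days was called in 60.8% to 68.5% of all tested genes. Members with few counts, such as Mrps34, are limited by depth.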
